A study of Mus musculus with 12 samples.

Results

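The step from epiblast-like cells (EpiLCs) to primordial germ cell-like cells (PGCLCs) was described in untreated mouse cells, across all genes counted. The libraries were chosen by their titles: 3 untreated PGCLC and 3 untreated EpiLC libraries, 6 of the 12 in the series, with their raw counts scaled together. All 6 carry the genotype Blimp1-mVenus; Stella-ECFP (BVSC) on strain C57BL/6, in which fluorescent proteins report Prdm1 (Blimp1) and Dppa3 (Stella), and received no treatment; the EpiLC library names add the word water. Embryonic stem cells held in medium with LIF were turned into EpiLCs over 48 h, and EpiLCs were then grown in small wells as aggregates in PGCLC medium, from which PGCLCs were taken at day 5. The other 6 libraries, from EpiLCs and PGCLCs of 100 nM bisphenol A (BPA) experiments, are used only where named.

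Both cell types are culture models. PGCLCs were sorted by FACS for both reporters out of dissociated aggregates, whereas EpiLCs were frozen as whole pellets without a sort, so stage, aggregate culture and sorting cannot be told apart. The library names of the 2 stages also follow different schemes, and a batch of libraries cannot be told apart from the stage. Prdm1 and Dppa3 are the genes behind the sort gate: their levels serve to check the labels and are no finding. The labels do not say that the replicates are separate cultures, so the p-values measure only the spread between these libraries, which may be technical. In RNA from many cells, fewer cells that express a gene and less RNA per cell cannot be told apart.

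As background, primordial germ cells, the founders of sperm and eggs, arise in the mouse embryo from the epiblast in response to BMP signals from the extraembryonic tissues around it. The transcription factors Prdm1, Prdm14 and Tfap2c hold the centre of the network that sets this fate: they repress somatic genes, bring back genes of naive pluripotency and precede a genome-wide loss of DNA methylation. EpiLCs stand for the epiblast before gastrulation, in which naive factors are low and the de novo DNA methyltransferases are high.

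The EpiLC libraries held 21840315, 21425667 and 15367922 gene counts and the PGCLC libraries 31688679, 32047046 and 31747975. The deposited files list only genes with at least 10 counts, 14783 to 15770 per EpiLC library and 16658 to 16964 per PGCLC library; an unlisted gene was set to 0 and could hold up to 9 counts. Levels are given as CPM, counts scaled by library size and by the TMM factor, which evens out differences in composition, so 9 counts correspond to 0.409 to 0.621 CPM in the EpiLC libraries and to 0.275 to 0.281 CPM in the PGCLC libraries. The first principal component took 74.8% of the variance and separated the stages. EpiLC replicate 3 stood apart from its group: it was the shallowest library, lay alone at the end of the second component (9.54% of the variance), and gave 13.0% of its counts to ribosomal protein genes, against 7.56% and 8.20% in the other EpiLC libraries and 5.61% to 5.95% in the PGCLC libraries. Its library name also carries another replicate number than its title, and the title was followed. Where leaving out any 1 library moved a list's count of called genes by more than 1.5 times and at least 2 genes, the value is given beside the result; other counts of 1 or 2 could move by 1. Genes annotated as ribosomal RNA took 0.102% to 0.123% of the counts in the EpiLC libraries and 1.78% to 1.94% in the PGCLC libraries (0.425% to 0.812% in the PGCLC libraries of the BPA experiment).

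The 4 germ cell markers were all higher in the PGCLC libraries, and 2 of the 4 epiblast markers were lower. Coordinates are those of mm10 with the GENCODE M21 annotation. Tfap2c (ENSMUSG00000028640, chr2:172549593-172558622, plus strand), which encodes a germ cell transcription factor of the AP-2 family, lay at 5.28, 5.17 and 5.18 CPM in the EpiLC libraries and 215, 248 and 252 CPM in the PGCLC libraries. Esrrb (ENSMUSG00000021255, chr12:86361117-86521628, plus strand), an orphan nuclear receptor of naive pluripotency, lay at 9.96, 12.3 and 8.84 CPM in the EpiLC libraries and 536, 529 and 562 CPM in the PGCLC libraries. Prdm1 (ENSMUSG00000038151, chr10:44437177-44528501, minus strand) lay at 10.5, 11.4 and 9.87 CPM in the EpiLC libraries and 177, 186 and 199.8 CPM in the PGCLC libraries. For each of these genes every PGCLC library lay far above every EpiLC library. Dppa3 (ENSMUSG00000046323, chr6:122626410-122630272, plus strand) lay at 15.2, 15.2 and 21.3 CPM in the EpiLC libraries and 204, 234 and 251 CPM in the PGCLC libraries, with no overlap of the groups. Tfap2c rose by 5.52 on the log2 scale (SE 0.14, adjusted p = 8.58e-06) and Esrrb by 5.71 (SE 0.17, adjusted p = 9.42e-06); the changes of the sorted-for genes were 4.15 for Prdm1 and 3.74 for Dppa3.

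The epiblast markers were mixed, and the stage names used here follow the labels. Pou3f1, a POU-domain factor of the formative epiblast, fell from 48.1, 39.8 and 66 CPM to 15.3, 16.9 and 13.8 CPM. Dnmt3b, a de novo DNA methyltransferase, fell from 707, 702 and 517 CPM to 195, 181 and 189 CPM. The groups did not overlap for either gene. Fgf5, the growth factor most used to mark primed epiblast, was low in both stages, with 7.37, 6.55 and 7.32 CPM in the EpiLC libraries and 6.65, 4.04 and 4.35 CPM in the PGCLC libraries; the groups overlapped and the gene did not pass the test (log2 change -0.50, adjusted p = 0.148). Otx2, a homeobox factor of epiblast and anterior neural cells, went against the label: it rose from 12.5, 11.4 and 10.7 CPM to 67.4, 77.2 and 83.2 CPM (log2 change 2.72, SE 0.15).

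**Figure D1:**
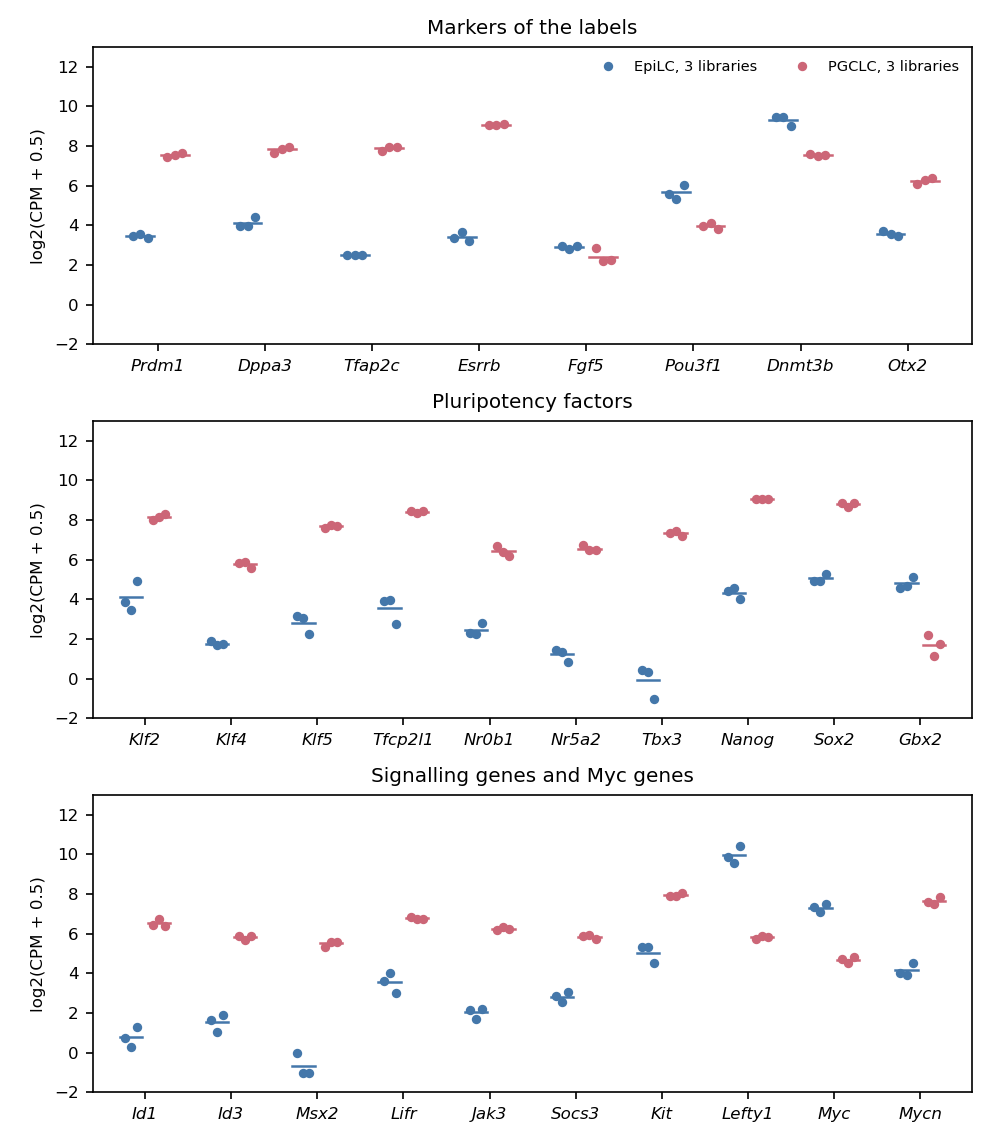
Levels of stage markers, pluripotency factors and signalling and Myc genes in the 6 untreated libraries, as log2(CPM + 0.5) on the vertical axis; each point is 1 library and each line the mean of 3. Tfap2c, Esrrb, Nanog, Sox2 and Mycn lie higher in PGCLCs, Dnmt3b, Pou3f1, Lefty1 and Myc lie higher in EpiLCs, and the points of Fgf5 overlap.

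Across the transcriptome, 16293 genes were expressed highly enough to test, and 7870 of them (48.3%) differed between the stages at an adjusted p under 0.05 in the edgeR quasi-likelihood test with Benjamini-Hochberg adjustment. PGCLCs were higher for 4145 genes (25.4% of those tested) and lower for 3725 (22.9%). A difference of at least 2-fold was called higher for 2791 genes (17.1%) and lower for 2204 (13.5%). These shares are the background for every gene list; the median log2 change over all tested genes was 0.01. Every log2 change is PGCLC minus EpiLC, with n = 3 libraries per group. The libraries of the 2 stages did not overlap for 10606 tested genes (65.1%), and they overlapped for only 20 called genes. A lack of overlap, given for named genes below, is thus common and adds little to a call.

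Changes of several-fold were common. The median size of a called change was 1.28 on the log2 scale. Among the 12915 genes listed in all 6 libraries, 626 were called at least 4-fold higher and 430 at least 4-fold lower, and 73 and 75 passed 16-fold. All 3 PGCLC libraries listed 652 genes that no EpiLC library listed, 453 of them protein-coding. The reverse held for 459 genes, of which 164 were protein-coding. Few of these genes were abundant: 25 of the 652 and 34 of the 459 reached a mean of 10 CPM in their own stage. All genes of both kinds were called. A gene tested through its counts in 1 stage had to differ, so this count is no support. The counts of the gene lists include such genes and carry the same limit for them. Some calls of genes named in the text rested on single libraries. The call of Fgfr4 was lost without EpiLC replicate 2 and that of Ldha without PGCLC replicate 2. Bmpr1b lost its call without EpiLC replicate 1 or 2, and Bmpr2 without PGCLC replicate 1 or 3. The calls of Smad3, Epcam and Eef1a1 were lost without any 1 of the PGCLC libraries, and those of Epcam and Eef1a1 also without EpiLC replicate 1. Foxd3, Gfra1, Meg3, Pfkm, Sohlh2 and Tfeb lost theirs without any of 3 or 4 single libraries, and Airn, Srebf2 and Wnt11 without any of 5. Leaving out EpiLC replicate 3 added calls for Axin2, Bmpr1a, Cdh1, Cxcr4, Ddx4, Dlk1, Dnmt1, Npc2 and Pou5f1, leaving out EpiLC replicate 2 for Bmpr1a and Pou5f1, leaving out PGCLC replicate 1 for Fgf5 and Sycp3, and leaving out PGCLC replicate 2 for T and Cdh2.

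**Figure D2:**
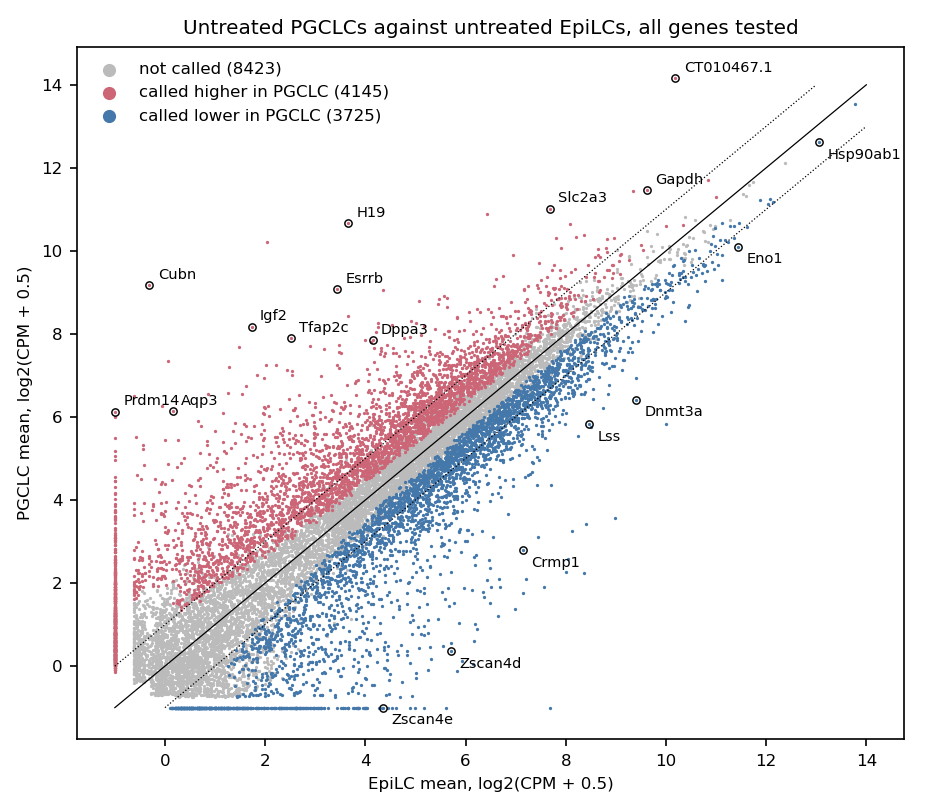
Mean level in PGCLCs (vertical axis) against mean level in EpiLCs (horizontal axis), both as log2(CPM + 0.5), for the 16293 tested genes; each point is 1 gene, colours mark the 4145 genes called higher and the 3725 called lower, labels name genes described in the text, and the solid and dotted lines mark equal levels and a 2-fold difference. Genes at the left and lower edges are those unlisted in a stage, and H19 and CT010467.1 stand far above the diagonal.

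Among protein-coding genes listed in all 6 libraries, the largest rises joined pluripotency regulators to genes of growth and transport. Aqp3, a water and glycerol channel, went from 0.637, 0.508 and 0.691 CPM to 70.7, 74.6 and 66.2 CPM, a log2 change of 6.85 (SE 0.18). Igf2, an imprinted fetal growth factor, went from 2.91, 3.05 and 2.49 CPM to 316, 307 and 243 CPM. No library of one stage came near the range of the other for either gene. Rbm47, an RNA-binding protein, rose by 6.47, Id1, an inhibitor of differentiation induced by BMP, by 6.21, and Col1a1, a fibrillar collagen of connective tissue, by 5.77. Nr5a2, an orphan nuclear receptor that acts with Esrrb in naive cells, rose by 5.62. The secreted protease Htra1 (5.59), the zinc finger factor Casz1 (5.36) and the lysosomal protease Ctsh (5.33) were also among the largest rises, beside Esrrb and Tfap2c.

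The largest falls were of a more mixed kind. Zscan4d, a factor of the 2-cell-like state, dropped from 46.2, 56.5 and 52.1 CPM to 0.624, 0.612 and 1.13 CPM. Crmp1, a protein of axon guidance, dropped from 143, 138 and 144 CPM to 6.18, 7.19 and 5.88 CPM (log2 change -4.46, SE 0.14). Both genes were lower in every PGCLC library. Dok2, an adaptor of tyrosine kinase signalling, changed by -4.94, and Btg3, an antiproliferative factor, by -4.67. Collagen VI chain Col6a5 (-5.75), the ephrin receptor Epha8 (-4.41), the junctophilin Jph4 (-4.21), the ATP synthase subunit Atp5l (-4.51) and the gene model Gm11808 (-6.29) were also among the largest falls, each with its log2 change in parentheses. The levels of Gm11808, Atp5l and Zscan4d are uncertain, since reads may be shared with near-identical copies or pseudogenes.

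Prdm14, the third regulator of the germ cell network, was unlisted in all EpiLC libraries and reached 64.5, 70.8 and 73.2 CPM in PGCLCs, at least 144-fold higher when 9 counts are allowed in each EpiLC library. Srgn, a proteoglycan of secretory granules, reached 56.9, 40.4 and 36.8 CPM (at least 92.7-fold). Both were present in every PGCLC library and listed in no EpiLC library. Next in level among protein-coding genes listed only in PGCLCs came Nxf7 (at least 73.7-fold), the yolk sac and liver protein gene Afp (67.9), the peptide transporter Slc15a1 (63.6, each as a bound on the fold), the netrin receptor Unc5c (47.8), the Wnt antagonist Dkk1 (44.9) and the endothelial cadherin Cdh5 (44.5). Afp and Cdh5 are defining genes of yolk sac endoderm and endothelium, and are themselves members of the marker lists described with the other cell types. The endoderm list had 16 of 17 tested genes higher, and 6 when only genes listed in all 6 libraries were kept. The blood and endothelial list had 5 of 10 higher, 1 lower and 4 not called. Among genes listed only in EpiLCs, the most abundant protein-coding gene outside the Zscan4 and Usp17l families was Mfsd2a, a lysolipid transporter, at 16.1, 14.6 and 16.6 CPM (at least 56.4-fold lower in PGCLCs), followed by Hpca, a neuronal calcium sensor (at least 27.8-fold lower).

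In absolute terms, among called protein-coding genes other than ribosomal proteins and histones, the largest gains in CPM included common reference genes. Gapdh, the glycolytic dehydrogenase often used as a reference gene, stood at 846, 889 and 631 CPM in the EpiLC libraries and 2712, 2705 and 3054 CPM in the PGCLC libraries. Actb, another common reference, stood at 1743, 1651 and 2129.5 CPM in the EpiLC libraries and 3443, 3285 and 3327 CPM in the PGCLC libraries. Both were higher in every PGCLC library, by 1.84 and 0.86 on the log2 scale. The glucose transporter Slc2a3 (log2 change 3.33), fibronectin Fn1 (2.56), non-muscle myosin Myh9 (2.12) and the imprinted genes Peg10 (2.03) and Peg3 (2.96) also gained. Lars2, a mitochondrial leucyl-tRNA synthetase, read 735, 525 and 674 CPM in EpiLCs and 2406, 1806 and 4155 CPM in PGCLCs; it spread widely within PGCLCs, where the ribosomal RNA share was also higher, and the part of ribosomal RNA in its count was not tested. The largest losses among the same kind of genes were in translation, folding and glycolysis. Eno1, an enolase, fell from 2754, 2497 and 3127 CPM to 1077, 1030.0 and 1186 CPM, with no overlap. The chaperone Hsp90ab1 (-0.43), the nucleolar proteins Npm1 (-0.97) and Ncl (-0.84), the ribosomal proteins Rpsa (-0.90) and Rplp0 (-1.04) and the elongation factor subunit Eef1g (-1.37) fell. Eef1a1, the main elongation factor, changed by -0.24 (adjusted p = 0.0432), a call that 9 of the 21 alternative settings removed.

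The steadiest abundant genes were Ppib, Zfp207, Surf4, Morf4l2, Dppa2 and Npc2, whose log2 changes lay between -0.0014 and 0.0018. Ppib, a cyclophilin of the endoplasmic reticulum, stood at 100.5, 109.9 and 123 CPM in the EpiLC libraries and 108, 118 and 107 CPM in the PGCLC libraries, and the groups overlapped. Dppa2, a pluripotency-associated chromatin factor, stood at 102, 114 and 102 CPM in the EpiLC libraries and 105, 106 and 108 CPM in the PGCLC libraries. None of the 6 passed the test in the main fit. Npc2 read 122, 113 and 175 CPM in the EpiLC libraries and 136, 142 and 133 CPM in the PGCLC libraries. It was called without EpiLC replicate 3, and Zfp207 was called with offsets for GC content and length.

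The gene lists sorted into 3 kinds. In the first, most members were higher in PGCLCs, among them germ cell specification, naive pluripotency, BMP, LIF, lysosome and basement membrane. It also held lists of other cell types and families: endoderm, mesoderm, trophoblast and stromal markers, keratins, and Rhox, Gata and Tfap2 genes. In the second, most called members were lower, among them cholesterol synthesis, DNA replication, ribosome biogenesis, nucleotide synthesis, ribosomal proteins and proteasome. The third kind split, with calls on both sides. Over all tested genes 25.4% were higher and 22.9% lower, so such a split is common and by itself no finding.

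**Figure D3:**
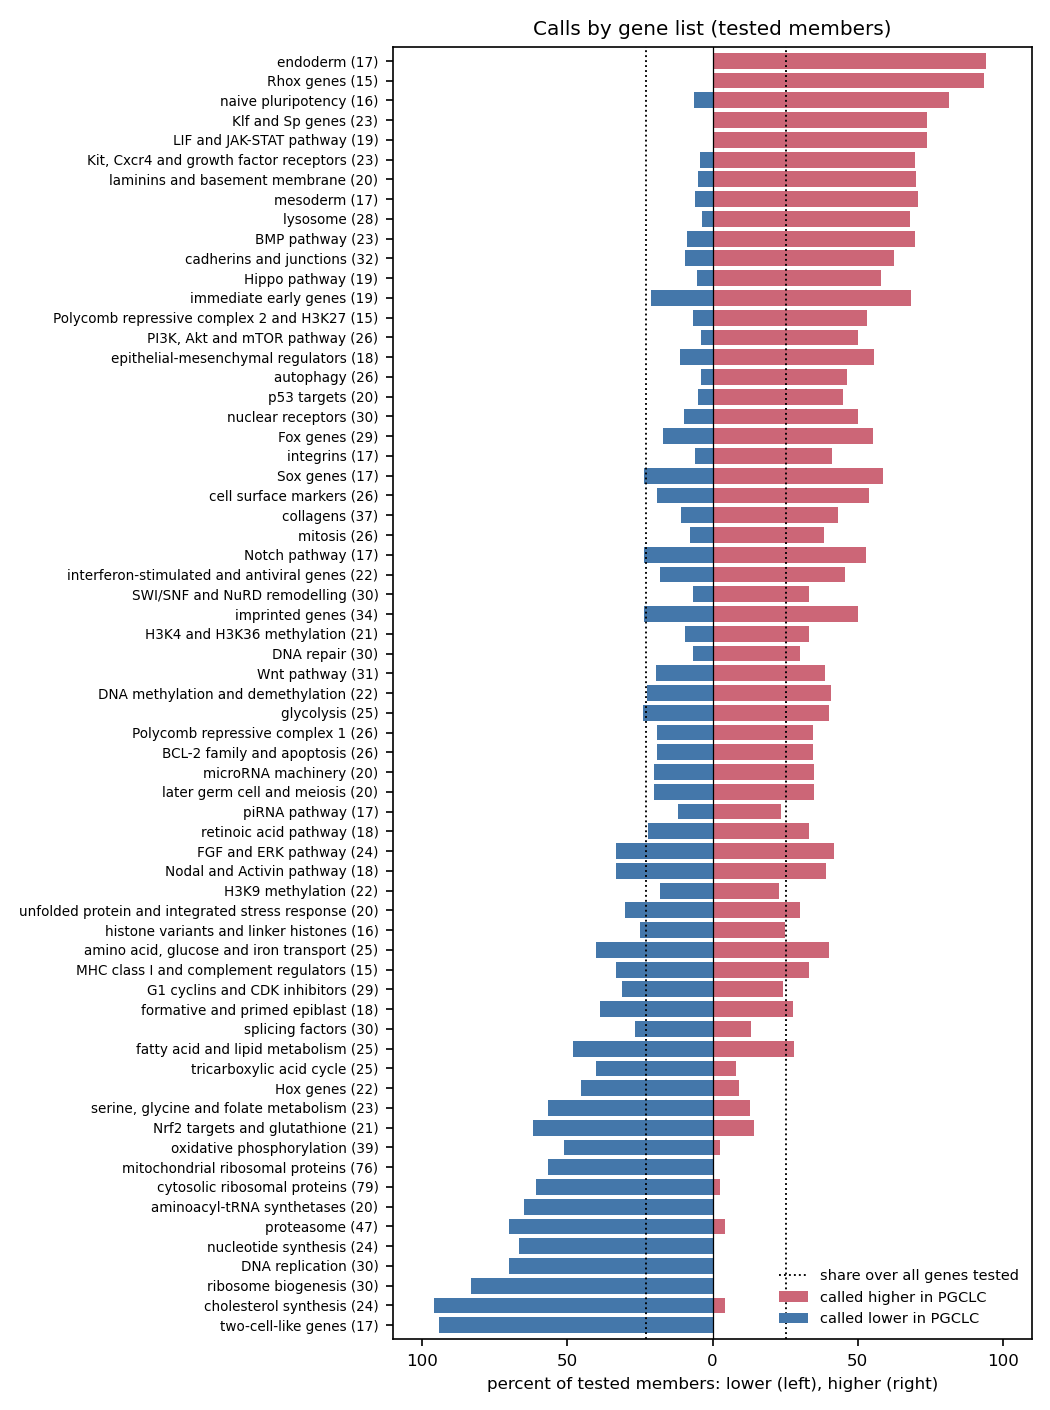
Share of tested members called lower (bars to the left) and higher (bars to the right) in PGCLCs for each list with at least 15 tested members; dotted lines mark the shares over all tested genes, 22.9% and 25.4%. Cholesterol synthesis and the 2-cell-like genes lie furthest to the left, and endoderm, Rhox and naive pluripotency genes furthest to the right.

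Of 14 germ cell specification genes, all tested, 12 were higher, 1 was lower and 1 did not pass; their median log2 change was 3.45 (3.28 with genes unlisted in a stage at their bound). The sort gate fixed the direction of Prdm1 and Dppa3; without them 10 of 12 were higher and 1 lower, with a median of 3.02. Beside Prdm1, Prdm14 and Tfap2c, Ifitm3, a membrane protein known as Fragilis that marks early germ cells, rose from 22.5, 23.1 and 35.1 CPM to 239.6, 233 and 244 CPM (log2 change 3.16, SE 0.20). Kit, the receptor tyrosine kinase that supports germ cell survival and migration, rose from 39.8, 39.7 and 22.2 CPM to 238, 242 and 269 CPM. Nanos3, an RNA-binding protein that keeps germ cells alive, rose from 0.728, 0.646 and 1.93 CPM to 7.46, 3.92 and 6.44 CPM. In all 3 the groups did not overlap. Ifitm1 rose by 5.22, the integrin Itgb3 (CD61), a surface marker used to isolate PGCLCs, by 5.8, tissue-nonspecific alkaline phosphatase Alpl by 1.86 and the RNA-binding Dnd1 by 1.04. Sox17, a factor of endoderm and, in human cells, of germ cells, was unlisted in EpiLCs and at 7.43, 4.22 and 3.63 CPM in PGCLCs. Lin28a, which blocks maturation of let-7 microRNAs, was the member that fell (-1.19). T (Brachyury), a mesoderm factor that acts early in germ cell induction, read 1.73, 2.72 and 1.86 CPM in the EpiLC libraries and unlisted, 0.428 and unlisted CPM in the PGCLC libraries, and did not pass (adjusted p = 0.077).

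Genes of later germ cells and meiosis did not move as a block: 7 of 20 tested were higher, 4 lower and 9 not called, with a median log2 change of 0.15. Dazl, an RNA-binding licensing factor of gametogenesis, rose from 5.64, 7.39 and 5.11 CPM to 57.5, 36.4 and 46.9 CPM (log2 change 2.95, SE 0.24). Smc1b, a meiotic cohesin, rose from 5.96, 5.17 and 4.07 CPM to 39.1, 41.7 and 49.6 CPM. These were the largest rises of the list, and their groups did not overlap. Tex14 (1.72), Stag3 (1.16), Hormad1 (0.87), Mov10l1 (0.67) and Sohlh2 (0.50) were also higher. Stra8, the retinoic acid-induced gatekeeper of meiotic entry, fell from 91, 82.3 and 137 CPM to 20.2, 17.9 and 20.5 CPM. Mael (-2.12), Dmc1 (-1.45) and Taf7l (-1.33) fell as well. Ddx4 (Vasa), a helicase of migrated germ cells, read 20.6, 22.7 and 15.3 CPM in the EpiLC libraries and 16.8, 14.1 and 13.7 CPM in the PGCLC libraries, and the synaptonemal complex gene Sycp3 read 6.82, 6.46 and 6.42 CPM in the EpiLC libraries and 7.99, 4.22 and 3.44 CPM in the PGCLC libraries; neither passed. In the piRNA pathway, which silences transposons, 4 of 17 tested genes were higher and 2 lower.

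Many late germ cell promoters carry E-box and E2F letters, and a called and an uncalled gene are shown as examples. E-box stands for CACGTG and E2F for TTCCCGC, each searched on both strands in the RefSeq promoter table (300 bases, GRCm38.p6), which gave a promoter for 11112 of the tested protein-coding genes. CACGTG was in 10 of the 20 promoters of the late list and in 10.2% of all promoters, and TTCCCGC was in 9 of the 20 and in 8.60% of all. Of the 10 genes with CACGTG, 3 were higher, 2 lower and 5 not called, and of the 10 without it 4, 2 and 4. Of the 9 genes with TTCCCGC, 4 were higher, none lower and 5 not called, and of those without it 3, 4 and 4. Hormad1, a protein of the meiotic chromosome axis that rose, is shown at chr3:95559477-95559676 (plus strand), and Sycp3, which did not pass, at chr10:88459387-88459586 (plus strand). Hormad1 holds CACGTG 57 and 20 bases before the start site and Sycp3 64 and 43 bases before it, and both hold TTCCCGC on the reverse strand. Capitals mark these matches.
Hormad1: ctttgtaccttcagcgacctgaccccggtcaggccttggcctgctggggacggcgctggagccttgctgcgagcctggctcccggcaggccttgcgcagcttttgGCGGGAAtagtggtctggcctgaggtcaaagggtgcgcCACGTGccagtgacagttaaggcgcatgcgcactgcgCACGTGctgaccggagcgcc
Sycp3: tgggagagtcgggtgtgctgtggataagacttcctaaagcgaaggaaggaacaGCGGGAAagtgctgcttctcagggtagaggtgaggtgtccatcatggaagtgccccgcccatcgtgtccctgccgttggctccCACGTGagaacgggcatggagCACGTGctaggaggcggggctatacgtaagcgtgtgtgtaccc

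Naive pluripotency genes were higher as a group. Of 16 genes, all tested, 13 were higher, 1 was lower and 2 did not pass, with a median log2 change of 4.48, and their summed level went from 401 to 441 CPM in EpiLCs to 3008 to 3061 CPM in PGCLCs. Nanog, a homeobox factor of the pluripotency core, rose from 20.9, 23.5 and 15.5 CPM to 536, 538 and 535 CPM (log2 change 4.74, SE 0.18). Tbx3, a T-box factor of naive cells, rose from 0.864, 0.785 and unlisted CPM to 164, 177 and 148 CPM (log2 change 8.07). Neither gene showed any overlap. The Krüppel-like factors Klf5 (4.89), Klf4 (4.22) and Klf2 (3.97), Tfcp2l1, a target of LIF signalling (4.81), the Akt co-activator Tcl1 (5.11), the nuclear receptor Nr0b1 (4.11), Fbxo15 (3.01) and Zfp42 (Rex1, 2.01) also rose. Gbx2, a homeobox factor of the same list, was the exception, falling from 23.6, 25.3 and 34.9 CPM to 4.15, 1.68 and 2.88 CPM (log2 change -3.26, SE 0.35). Dppa2 and Dppa4 did not pass.

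The general pluripotency genes split, with 3 of 12 higher, 5 lower and 4 not called; without EpiLC replicate 3, 8 were lower. Sox2, partner of Oct4, rose from 30.3, 30.2 and 38.9 CPM to 470.3, 399.8 and 459 CPM (log2 change 3.74, SE 0.16). Pou5f1, which encodes Oct4 itself, read 555, 496 and 728 CPM in the EpiLC libraries and 430.4, 421 and 461 CPM in the PGCLC libraries and did not pass (log2 change -0.44, adjusted p = 0.055), though it passed in 9 of the 21 alternative settings. The levels of Sox2 were far apart between stages, while those of Pou5f1 lay close together. Sall4 (2.65) and Trim71 (1.75) rose, and Lin28b (-1.5), Lin28a, L1td1 (-0.82), the Nodal co-receptor Tdgf1 (-0.56) and Epcam (-0.41) fell. Formative and primed epiblast genes split too, with 5 of 18 higher and 7 lower. Sox3 (-3.57), Dnmt3a (-3.0), Sall2 (-1.78), Dnmt3l (-1.65) and the Wnt effector Lef1 (-1.45) fell with Pou3f1 and Dnmt3b. Zic2 (1.09), Foxd3 (1.07) and Cldn6 (0.86) rose with Otx2.

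Genes of the 2-cell-like state, a rare state of stem cell cultures that resembles the embryo at genome activation, fell together. Of 17 tested, 16 were lower and none was higher, with a median log2 change of -6.62 (-4.87 at the bound), and the summed level went from 305 to 337 CPM to 57.0 to 61.9 CPM. Zscan4c, a telomere regulator of this state, fell from 28.7, 34.7 and 32.2 CPM to unlisted, 0.949 and unlisted CPM. Usp17le, of a deubiquitinase family, read 11, 13.7 and 8.98 CPM and was unlisted in PGCLCs, at least 40.1-fold lower. Zscan4e (at least 71.4-fold lower) and the copies Zscan4-ps3 (81.5), Zscan4-ps2 (67.8) and Zscan4-ps1 (50.2) were unlisted in all PGCLC libraries as well. Zscan4, Usp17l and Tcstv genes lie in clusters of near-identical copies, so the reads of a member cannot be assigned to it with certainty, and the list is closer to a few measurements than to 17.

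Transcription factor families showed wide and uneven changes. Klf and Sp genes had 17 of 23 tested higher and none lower. Of the Gata and Tfap2 genes, 8 of 9 were higher, with a summed level of 10.8 to 12.9 CPM in EpiLCs and 357 to 390.1 CPM in PGCLCs. Gata3, a trophoblast and lineage factor, rose from unlisted, 0.646 and unlisted CPM to 21.6, 25.5 and 19.7 CPM, and Gata6, a primitive endoderm factor, was unlisted in EpiLCs and reached 22.5, 16.6 and 13.6 CPM. Both were separated in all libraries. T-box genes had 5 of 11 higher and none lower (2 without PGCLC replicate 2), Sox genes 10 of 17 higher and 4 lower (2 without EpiLC replicate 1), and Fox genes 16 of 29 higher and 5 lower. Sox9, a factor of many progenitor cells, was unlisted in EpiLCs and reached 10.6, 11 and 13.8 CPM. Hox genes, which pattern the body axis, went the other way: 10 of 22 tested were lower and 2 higher, and their summed level went from 75.8 to 89.8 CPM to 18.9 to 22.9 CPM. Hoxb1, an anterior Hox gene, fell from 11.2, 8.95 and 12.3 CPM to unlisted, unlisted and 1.03 CPM. The X-linked Rhox homeobox genes, active in germ line and placenta, had 14 of 15 tested higher, with a summed level of 72.6 to 147 CPM against 459.8 to 513 CPM; their median of 4.84 became 1.59 at the bound, and several Rhox copies share reads. Nuclear receptors had 15 of 30 tested higher and 3 lower (5 without PGCLC replicate 1). Among genes listed in all 6 libraries, 3 Gata and Tfap2, 6 Rhox, 10 Fox, 5 Sox and 2 T-box genes were higher.

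Genes of the BMP pathway, the inductive signal of germ cell fate, were mostly higher: 16 of 23 tested, with 2 lower and a median log2 change of 2.84 (1.97 at the bound). Among ligands, Bmp4 rose from 1.05, 1.25 and 1.8 CPM to 16, 15 and 15.4 CPM, Bmp2 was unlisted in EpiLCs and at 1.62, 2.36 and 2.2 CPM in PGCLCs, and Bmp8b fell (-1.96). Of the receptors, Bmpr2 rose (1.21), Bmpr1b fell (-2.14) and Bmpr1a read a log2 change of 0.67 without passing. Target genes moved furthest. Id1 read 1.18, 0.739 and 2.0 CPM in the EpiLC libraries and 87.2, 109 and 84.4 CPM in the PGCLC libraries. Id3 read 2.59, 1.57 and 3.25 CPM in the EpiLC libraries and 58.4, 51.3 and 58.7 CPM in the PGCLC libraries. Msx2, a homeobox target of BMP, read 0.50, unlisted and unlisted CPM in the EpiLC libraries and 40.2, 47.2 and 48.2 CPM in the PGCLC libraries. For all of them every PGCLC library lay far above every EpiLC library. Id2 (3.11) and Msx1 (2.93) rose as well, and Id4, unlisted in EpiLCs, reached 22.1, 15 and 14.8 CPM. Feedback inhibitors rose too: Smad6 by 2.91, Smad7 by 1.97 and Bambi by 1.21, and the antagonist Nog, unlisted in EpiLCs, reached 0.718, 0.643 and 1.81 CPM.

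LIF and JAK-STAT genes, which sustain naive pluripotency, had 14 of 19 tested higher and none lower. Lifr, the LIF receptor, rose from 12, 16 and 7.6 CPM to 116, 106 and 105 CPM, and Socs3, a feedback target of STAT3, from 6.69, 5.31 and 7.87 CPM to 59.6, 59.8 and 53.4 CPM. The groups were separated for both. The shared receptor chain Il6st (2.64), the kinase Jak3 (4.39), Stat5a (2.14) and Stat3 (1.62) rose, and Osmr, unlisted in EpiLCs, reached 0.531, 0.949 and 0.625 CPM.

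The Nodal pathway, which patterns the epiblast, was split with 7 of 18 tested higher and 6 lower. Lefty1, a Nodal antagonist and direct target, showed the largest fall, from 932, 756 and 1375 CPM to 53.5, 59.5 and 57.6 CPM (log2 change -4.17, SE 0.25). Nodal changed by -0.92, and Gdf3 (-0.62), Foxh1 (-0.61) and Tdgf1 fell with it. Receptors, transducers and convertases were among the higher genes, with Smad3 at 0.60, Smad4 at 0.71, Pcsk6 at 1.54, Acvr1b at 1.51, Acvr2b at 0.91 and Furin at 1.99, and the activin subunit gene Inhbb, unlisted in EpiLCs, reached 7.55, 6.95 and 10.6 CPM.

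In the FGF and ERK list, 10 of 24 tested genes were higher and 8 lower. Fgf4 rose from 45.7, 43.3 and 50.1 CPM to 148, 145 and 136 CPM, and the receptors Fgfr2 (1.5), Fgfr3 (1.6) and Fgfr4 (1.12) rose. The ERK targets Etv4 (-1.53), Egr1 (-1.26) and Dusp6 (-0.86) fell, while Etv5 (1.16), Spry4 (0.84) and Spry2 (0.53) rose, so feedback genes of the same pathway lay on both sides. In the Wnt list 12 of 31 were higher and 6 lower. Wnt8a, a ligand of the gastrulating epiblast, fell from 10.2, 10.7 and 10.5 CPM to unlisted, 0.979 and 0.344 CPM, and Wnt11 rose from unlisted, unlisted and 0.691 CPM to 3.5, 4.99 and 2.38 CPM. Axin2, the most general Wnt target, read 9.64, 11 and 6.21 CPM in the EpiLC libraries and 6.37, 7.89 and 6.79 CPM in the PGCLC libraries and did not pass. Growth factor receptors and ligands were higher for 16 of 23 tested genes and lower for 1, Gfra1, the GDNF co-receptor (-3.15). Pdgfra (5.4) and Kdr (5.39), receptors of mesoderm and endothelium, were among the largest rises. Cxcr4, the chemokine receptor that guides migrating germ cells, read 0.91, 0.831 and unlisted CPM in the EpiLC libraries and 2.78, 3.55 and 2.85 CPM in the PGCLC libraries; it did not pass (adjusted p = 0.0739). Hippo genes (11 of 19 higher, 1 lower, or 2 lower without EpiLC replicate 3), PI3K and mTOR genes (13 of 26 higher, or 8 without PGCLC replicate 3, and 1 lower) and immediate early genes (13 of 19 higher, 4 lower) leaned to the higher side. Among the last, Jun (3.49), Fos (3.32), Fosl2 (3.23) and Junb (2.62) rose.

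The Myc genes moved in opposite directions. Myc, a growth regulator of cycling cells, read 163, 136 and 183 CPM in the EpiLC libraries and 25.7, 22.5 and 27.5 CPM in the PGCLC libraries. Mycn, its paralogue, read 15.6, 14.6 and 22.7 CPM in the EpiLC libraries and 195, 181 and 229 CPM in the PGCLC libraries. Every EpiLC library was above every PGCLC library for Myc and below for Mycn. Myc changed by -2.67 (SE 0.16, adjusted p = 4.69e-05) and Mycn rose by 3.52 (SE 0.21, adjusted p = 4.94e-05).

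All cholesterol synthesis genes but 1 were lower in PGCLCs. The pathway makes sterols from acetyl-CoA, is switched on by the transcription factor Srebf2 when sterols are scarce, and feeds membranes. Of 24 genes, all tested, 23 were lower in PGCLCs and 1 was higher, with a median log2 change of -1.79, and 22 fell at least 2-fold. The summed level went from 4800 to 5489 CPM to 1629 to 1809.8 CPM. Hmgcs1, the synthase at the entry of the pathway, fell from 490.0, 543 and 469 CPM to 151, 134 and 164 CPM. Lss, which closes the sterol ring system, fell from 383, 390.0 and 283 CPM to 51.2, 58.9 and 58.9 CPM. Idi1, an isomerase of the isoprenoid steps, fell from 95.1, 127 and 53.9 CPM to 19.1, 15.3 and 17.3 CPM. In all 3 the lowest EpiLC library exceeded the highest PGCLC library by more than 2-fold. Msmo1 changed by -2.76, Dhcr7 by -2.45 and Srebf2 by -0.44, a call lost in 9 of the 21 alternative settings. Ebp, an isomerase of the late steps, was the exception and rose from 18.1, 18.3 and 25.5 CPM to 34.6, 36.7 and 32.2 CPM. The counts were 23 lower and 1 higher also with offsets for GC content and gene length.

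**Figure D4:**
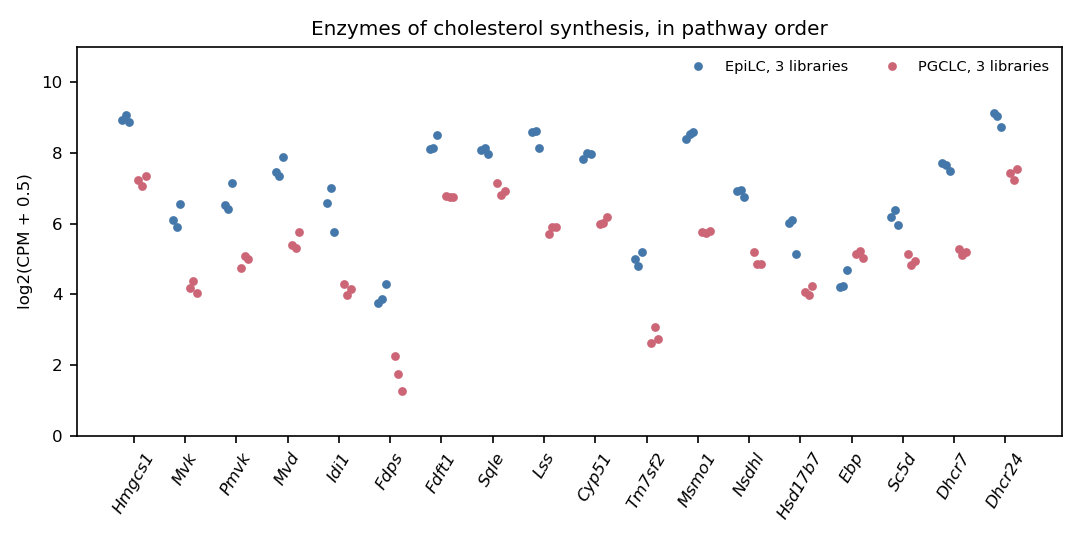
Levels of 18 cholesterol synthesis enzymes in pathway order (horizontal axis) as log2(CPM + 0.5) in the 6 untreated libraries; each point is 1 library. The PGCLC points lie below the EpiLC points for every enzyme drawn except Ebp.

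The promoters of 3 of these enzymes are shown because the list shares a short motif. CCAAT, searched on both strands, was in 15 of the 16 cholesterol promoters in the RefSeq table, against 38.9% of all promoters, and the 15 included Ebp, the gene that rose. The sterol element TCACNCCAC was in 1 of the 16, Hmgcs1, against 1.13% of all promoters. The windows hold the 200 bases before the start site on the plus strand of GRCm38.p6, Hmgcs1 at chr13:119690151-119690350, Idi1 at chr13:8885406-8885605 and Lss at chr10:76531405-76531604. Capitals mark CCAAT, here read as its reverse complement ATTGG, and in Hmgcs1 also the sterol element.
Hmgcs1: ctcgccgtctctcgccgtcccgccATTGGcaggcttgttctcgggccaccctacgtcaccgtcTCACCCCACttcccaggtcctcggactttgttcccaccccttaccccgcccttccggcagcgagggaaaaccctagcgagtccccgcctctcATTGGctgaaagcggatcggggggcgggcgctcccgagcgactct
Idi1: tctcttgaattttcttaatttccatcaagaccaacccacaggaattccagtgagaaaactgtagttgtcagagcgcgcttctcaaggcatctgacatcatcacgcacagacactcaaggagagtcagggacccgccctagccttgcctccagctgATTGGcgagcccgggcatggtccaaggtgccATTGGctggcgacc
Lss: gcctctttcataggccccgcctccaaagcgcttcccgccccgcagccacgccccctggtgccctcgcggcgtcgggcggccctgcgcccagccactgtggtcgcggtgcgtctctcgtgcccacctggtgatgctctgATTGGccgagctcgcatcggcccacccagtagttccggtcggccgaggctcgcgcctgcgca

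Several fatty acid synthesis genes fell as well, and several oxidation genes rose. In the lipid list 12 of 25 tested genes were lower and 7 higher. The desaturases Scd2 (-2.09), Fads2 (-1.66) and Scd1 (-1.56), the carboxylase Acaca (-1.47), the synthase Fasn (-1.26) and the citrate lyase Acly (-1.06) fell. The carnitine transferase Cpt1a (1.95), the dehydrogenase Acadm (1.0) and the binding protein Fabp3 (3.33) rose. Srebf1, a regulator of fatty acid synthesis genes, changed by -1.0.

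Serine, glycine and folate metabolism had 13 of 23 genes lower and 3 higher. Phgdh, which opens serine synthesis, fell from 444, 388 and 536 CPM to 105, 85 and 90.4 CPM. Tdh, the threonine dehydrogenase that mouse pluripotent cells use as a source of glycine, rose from 17.6, 16.3 and 20.4 CPM to 272, 243 and 274 CPM. The groups were separated in opposite directions. Nucleotide synthesis had 16 of 24 lower and none higher, led by the thymidine kinase Tk1 (-2.02) and Dhodh (-1.92). Nrf2 targets and glutathione genes had 13 of 21 lower and 3 higher. Higher genes were 5 without EpiLC replicate 3 and 1 without EpiLC replicate 1 or PGCLC replicate 3. The lower genes included the cystine transporter Slc7a11 (-2.91) and Nqo1 (-2.7). Chromosome 8, whose genes read lower as a whole, holds 2 of the tested nucleotide synthesis genes and 4 of the Nrf2 list. With that chromosome left out, 14 and 11 were lower.

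Glycolysis split, with 10 of 25 genes higher and 6 lower (9 with offsets for GC content and length). The transporters Slc2a3 (3.33) and Slc2a1 (1.8), the hexokinases Hk1 (2.38) and Hk2 (0.99) and the phosphofructokinase Pfkp (3.23) rose. Eno1 (-1.35), Pgk1 (-0.93), Pgam1 (-0.78) and Ldha (-0.56) fell. Gapdh and Ldhb (1.06) also rose, and Pfkm (-0.43) fell. Oxidative phosphorylation had 20 of 39 nuclear genes lower and 1 higher, Cox5a. Only 8 or 9 were lower when any 1 PGCLC library was left out, 4 were higher without EpiLC replicate 3, and with offsets for GC content and length 13 were lower and 8 higher. The tricarboxylic acid cycle had 10 of 25 lower (6 without PGCLC replicate 3) and 2 higher, with Idh2 rising (1.86) while Idh1 (-0.91) and Idh3a (-0.87) fell.

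Genes that build and run ribosomes were lower in PGCLCs. Ribosome biogenesis had 25 of 30 genes lower and none higher (1 without EpiLC replicate 3), with a median log2 change of -0.93, and the summed level went from 16377 to 18800.4 CPM to 9333 to 9364 CPM. Fbl, the methyltransferase fibrillarin, fell from 402, 403 and 647 CPM to 159.6, 145 and 147 CPM, and Nop56, another box C/D protein, from 626, 643 and 806 CPM to 219, 232 and 230.3 CPM. Neither overlapped. Aminoacyl-tRNA synthetases had 13 of 20 lower and none higher. Cytosolic ribosomal proteins had 48 of 79 lower and 2 higher; 10 were higher without EpiLC replicate 3, the library in which their share of counts was largest, and 10 with offsets for GC content and length. Mitochondrial ribosomal proteins had 43 of 76 lower and none higher; 8 were higher without that library and 10 with the offsets. Many ribosomal protein genes have processed pseudogenes with near-identical sequence, so their levels are uncertain. Proteasome genes had 33 of 47 lower (21 without PGCLC replicate 2 or 3) and 2 higher, of which Psmb8, an immunoproteasome subunit, rose (1.99) while its partners Psmb9 (-2.28) and Psmb10 (-2.52) fell.

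The lysosome list went the other way, with 19 of 28 genes higher, 1 lower (Gusb, -1.19) and a median log2 change of 0.80. Npc1, which exports cholesterol from lysosomes, rose from 38.5, 38.6 and 24 CPM to 159, 142 and 144 CPM, and its groups did not overlap. The proteases Ctsh and Ctsc (3.16), the membrane protein Lamp2 (1.8) and Tfeb, the master regulator of lysosome genes (1.26), rose. Autophagy genes had 12 of 26 higher and 1 lower, led by the initiating kinase Ulk1, which went from 49.5, 49.2 and 32.5 CPM to 418, 463 and 505 CPM.

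DNA replication genes were lower in PGCLCs. Of 30 replication genes 21 were lower and none higher, with a median log2 change of -0.69, although 3 fell at least 2-fold: Gins2 (-2.66), Orc6 (-1.73) and Rpa2 (-1.18). Gins2, a subunit of the replicative helicase, read 133, 119 and 184 CPM in the EpiLC libraries and 24.5, 22.9 and 21.8 CPM in the PGCLC libraries. Pcna, the sliding clamp, read 429, 437 and 453 CPM in the EpiLC libraries and 218, 229.6 and 232 CPM in the PGCLC libraries. No PGCLC library reached the EpiLC range in either gene. Of the 30 replication genes, 6 lie on chromosome 8, whose genes read lower as a whole in PGCLCs (median log2 change -0.33). With that chromosome left out, and those 6 genes with it, 17 were lower and none higher. The falls of the genes named here were not set apart from that of the chromosome. Of 26 mitosis genes 10 were higher, but 3 or 4 when EpiLC replicate 1 or any 1 PGCLC library was left out and 15 without EpiLC replicate 3; 2 were lower (4 without EpiLC replicate 3), with Cenpf, a kinetochore protein, at 1.9 and Cdk1 at -0.84. Among cell cycle regulators 7 of 29 were higher and 9 lower. Ccnd1 (-2.45) and Ccne1 (-1.87) fell, Ccnd2 (1.76) and Ccnd3 (2.13) rose, and the inhibitors Cdkn1b (1.81) and Rb1 (1.6) rose while Cdkn2a fell (-1.89). DNA repair had 9 of 30 higher and 2 lower, and 14 and 5 without EpiLC replicate 3.

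E2F letters were frequent in the replication promoters, and 2 are shown, with the match on either strand. TTCCCGC was in 12 of the 25 replication promoters in the table, against 8.60% of all; 9 of the 12 genes were lower and 3 not called, and of the 13 without it 10 were lower and 3 not called. Cdc6, which loads the helicase onto origins, changed by -0.86 and lies at chr11:98907951-98908150, with the match 138 bases before the start site on the reverse strand. Prim1, the primase subunit, changed by -0.84 and lies at chr10:128015015-128015214, with the match 15 bases before the start site. Both windows are of the plus strand of GRCm38.p6, from RefSeq, and capitals mark the match.
Cdc6: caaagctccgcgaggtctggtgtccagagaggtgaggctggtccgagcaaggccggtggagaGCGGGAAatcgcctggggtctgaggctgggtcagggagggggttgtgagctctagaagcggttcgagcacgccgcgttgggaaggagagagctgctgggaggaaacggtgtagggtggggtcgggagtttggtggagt
Prim1: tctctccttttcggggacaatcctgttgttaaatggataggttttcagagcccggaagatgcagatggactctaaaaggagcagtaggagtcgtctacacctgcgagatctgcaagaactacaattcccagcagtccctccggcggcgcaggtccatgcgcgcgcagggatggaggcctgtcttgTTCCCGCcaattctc

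Among DNA methylation genes, the de novo methyltransferases were lower and Tet1 and Tet2 higher. Dnmt3a read 726, 705 and 608 CPM in the EpiLC libraries and 70.2, 93.4 and 91 CPM in the PGCLC libraries. Uhrf1, which brings the maintenance enzyme to replicated DNA, read 536, 518 and 432 CPM in the EpiLC libraries and 266, 297 and 251 CPM in the PGCLC libraries. Both were lower in every PGCLC library, as were Dnmt3b and Dnmt3l. Dnmt1, the maintenance methyltransferase, had a log2 change of 0.39 and did not pass (adjusted p = 0.0805). The oxidases that start demethylation rose, Tet1 from 239, 269 and 80.5 CPM to 657, 662 and 660.0 CPM and Tet2 from 35.5, 39.5 and 12.7 CPM to 230.3, 259 and 243 CPM, with no overlap, while Tet3 (0.38) did not pass. Over the whole list of 22 genes, 9 were higher and 5 lower.

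The Polycomb repressive complex 2 list had 8 of 15 higher and 1 lower (2 without EpiLC replicate 3): the accessory subunits Phf19 (3.17), Jarid2 (1.41) and Mtf2 (1.25) and the core subunit Suz12 (1.3) rose, while the methyltransferase Ezh2 (-0.11) and Eed (0.11) did not pass. Polycomb repressive complex 1 had 9 of 26 higher, but 4 without EpiLC replicate 1 or PGCLC replicate 2 and 5 without EpiLC replicate 2 or PGCLC replicate 3. It had 5 lower, and 3 without EpiLC replicate 1 or PGCLC replicate 1 or 2. The counts were for H3K9 methylation 5 of 22 higher and 4 lower, and for H3K4 and H3K36 methylation 7 of 21 higher (11 without EpiLC replicate 3) and 2 lower (0 without EpiLC replicate 1 or PGCLC replicate 1), or 5 and 6 with offsets for GC content and length. Histone variants and linker histones had 4 of 16 higher (7 without EpiLC replicate 3, and 8 with the offsets) and 4 lower. The macroH2A genes moved in opposite directions: H2afy rose from 28.2, 27.9 and 32.9 CPM to 299, 309 and 337 CPM and H2afy2 fell from 79.5, 79.4 and 87.3 CPM to 32.3, 34.8 and 33 CPM.

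Imprinted genes, expressed from a single parental copy, had 17 of 34 tested members higher and 8 lower, and their summed level went from 1477 to 2233 CPM to 5828 to 6444 CPM. H19, a non-coding RNA of the maternal copy, read 10.9, 10.6 and 14.7 CPM in the EpiLC libraries and 1604, 1742 and 1544 CPM in the PGCLC libraries. Its neighbour Igf2 moved in the same direction. H19 rose by 7.08 (SE 0.19), with no overlap of the groups. Gnas (2.96), Peg3, Airn (3.81, a call lost in 9 alternative settings), Zim1 (3.7) and Plagl1 (2.4) rose. Nap1l5 (-2.71), Phlda2 (-2.29), Snrpn (-1.12) and the Dlk1 domain RNAs Meg3 (-1.03), Rian (-1.23) and Mirg (-1.3) fell. Counts per gene do not tell the parental copies apart, and genes that overlap on opposite strands, such as Airn and Igf2r, depend on the strand setting, which the sources do not give.

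Matrix and adhesion lists held more genes called higher than lower in PGCLCs. Laminins and basement membrane genes had 14 of 20 higher and 1 lower (Lama5, -1.03; 2 lower without EpiLC replicate 3, and 4 with offsets for GC content and length). Lama1, the embryonic laminin chain, rose from 4.18, 4.11 and 2.0 CPM to 155, 109.8 and 103 CPM, and Col4a1, a chain of collagen IV, from 65, 64.1 and 40.8 CPM to 393, 319 and 282 CPM. These groups were separated. Cadherins and junction genes had 20 of 32 higher and 3 lower (1 without EpiLC replicate 1), the higher genes including the desmosomal Dsp (3.9) and Dsg2 (3.0); E-cadherin Cdh1 (-0.29) and N-cadherin Cdh2 (-0.56) did not pass. Collagens had 16 of 37 higher, 4 lower and 17 not called, integrins 7 of 17 higher, 1 lower and 9 not called, keratins 8 of 11 higher and 1 lower, and epithelial-mesenchymal regulators 10 of 18 higher (6 without EpiLC replicate 1) and 2 lower. Surface markers had 14 of 26 higher and 5 lower, with Cd38 (4.07) and Pecam1 (3.12) rising with Kit and Itgb3, and Thy1 falling (-2.05).

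Markers of most other cell types were also higher in the PGCLC libraries. Endoderm markers had 16 of 17 tested higher and none lower, with sums of 134 to 271 CPM in EpiLCs and 1603 to 2410.1 CPM in PGCLCs; Cubn, a receptor of yolk sac endoderm, went from 0.455, 0.462 and unlisted CPM to 743, 529 and 455 CPM, and Cer1 was unlisted in all 6 libraries. Mesoderm markers had 12 of 17 higher and 1 lower, with sums of 29.2 to 32 CPM and 207 to 256 CPM; Hand1 led at 9.02, and Mesp1 and Msgn1 were unlisted. Trophoblast markers had 8 of 10 higher and none lower, with sums of 40.0 to 70.2 CPM and 438 to 545 CPM, and the placental hormone genes Prl3d1 and Tpbpa were unlisted. Blood and endothelial markers had 5 of 10 higher and 1 lower (sums 46.8 to 50.2 CPM and 209.6 to 239 CPM), with Hbb-y, Hbb-bh1 and Ptprc unlisted. Stromal markers had 8 of 10 higher and 1 lower (sums 308 to 453 CPM and 2106 to 2260.0 CPM). Among genes listed in all 6 libraries, 6 endoderm, 6 mesoderm, 5 trophoblast, 3 blood and endothelial and 5 stromal markers were higher. Neuroectoderm markers had 1 of 6 higher and 3 lower, with sums of 168 to 181 CPM and 100.3 to 104 CPM. Of these 6, 2 lie on chromosome 8, whose genes read lower as a whole, and 1 was lower with that chromosome left out. Pax3, Pax7, Neurog2, Olig2 and Hes5 were among the neuroectoderm markers unlisted. Many other lists were higher too, among them naive pluripotency, germ cell specification, LIF, BMP, growth factor receptor, Gata, matrix, keratin and lysosome. Some genes stand both in a marker list and in another list (Gata4, Sox17, Kdr, Col4a1, Hand1). The part of other cells in these results was not tested.

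Classes of genes differed as well. Pseudogenes were lower for 50.2% of the 1039 tested, against 21.7% of protein-coding genes, and took 1.15% to 1.5% of the counts in the EpiLC libraries and 0.312% to 0.329% in the PGCLC libraries. The BPA libraries read 1.14% to 1.23% and 0.264% to 0.299%, with EpiLCs again above PGCLCs. Of the pseudogenes listed in all 6 untreated libraries, 201 of 377 were lower and 19 higher. Of 902 long non-coding genes, 16.4% were higher and 13.7% lower. CT010467.1, annotated as ribosomal RNA, read 1188, 1010.2 and 1308 CPM in the EpiLC libraries and 19147, 17387 and 18111 CPM in the PGCLC libraries, and its rise of 3.96 (SE 0.13) made it the most abundant gene of the PGCLC libraries.

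The direction of change went with level and exon length. Of the 92 genes with a mean over 1000 CPM, 52.2% were lower and 8.70% higher, whereas of genes between 10 and 100 CPM 25.2% were lower and 28.9% higher. Of the 310 protein-coding genes with under 1 kb of exon sequence, 17.1% were higher and 30.0% lower, with a median log2 change of -0.55. Of the 2500 with over 8 kb, 39.7% were higher and 9.8% lower, with a median of 0.52, and the classes between fell in order. With offsets for GC content and length, 46.8% of called genes were higher in place of 52.7%. With these offsets the counts of lower genes rose to 8 in the H3K9 methylation list, 7 in DNA repair, 7 in nuclear receptors, 4 in mitosis, 3 each in the Polycomb repressive complex 2 and PI3K lists and 2 each in the lysosome and autophagy lists, and higher genes to 5 in the core pluripotency list and 4 in the proteasome list. Changes of at least 2-fold in both directions were more frequent at CpG-poor promoters. Of the 908 genes with a CpG observed-to-expected ratio under 0.25, 27.6% were higher and 14.8% lower by that measure, at a median level of 2.78 CPM. Of the 5601 with a ratio of 0.75 or more, 13.7% were higher and 9.14% lower, at a median of 41.5 CPM. Among genes of 10 to 100 CPM the shares were 34.2% and 12.8% at the low ratio and 13.6% and 8.50% at the high one.

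Chromosome 8 differed from the other chromosomes. Its 752 tested protein-coding genes had a median log2 change of -0.33, with 35.1% lower and 16.9% higher, while the other 19 chromosomes had medians of -0.06 to 0.25, with 16.1% to 25.2% lower and 23.4% to 33.9% higher. It took 6.04% to 6.17% of protein-coding counts in the untreated EpiLC libraries and 4.84% to 4.93% in the untreated PGCLC libraries. In the BPA experiment the shares were 5.99% to 6.15% in EpiLCs and 5.55% to 5.63% in PGCLCs, so the untreated PGCLC libraries read lowest of the 4 groups without overlap. Along the chromosome, medians of 20 Mb bins ran from -0.44 to 0.08, with 5 of the 7 bins at -0.29 or lower and the bins from 20 to 60 Mb near 0. Leaving the chromosome out of the fit gave 7417 called genes among the 15389 others.

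**Figure D5:**
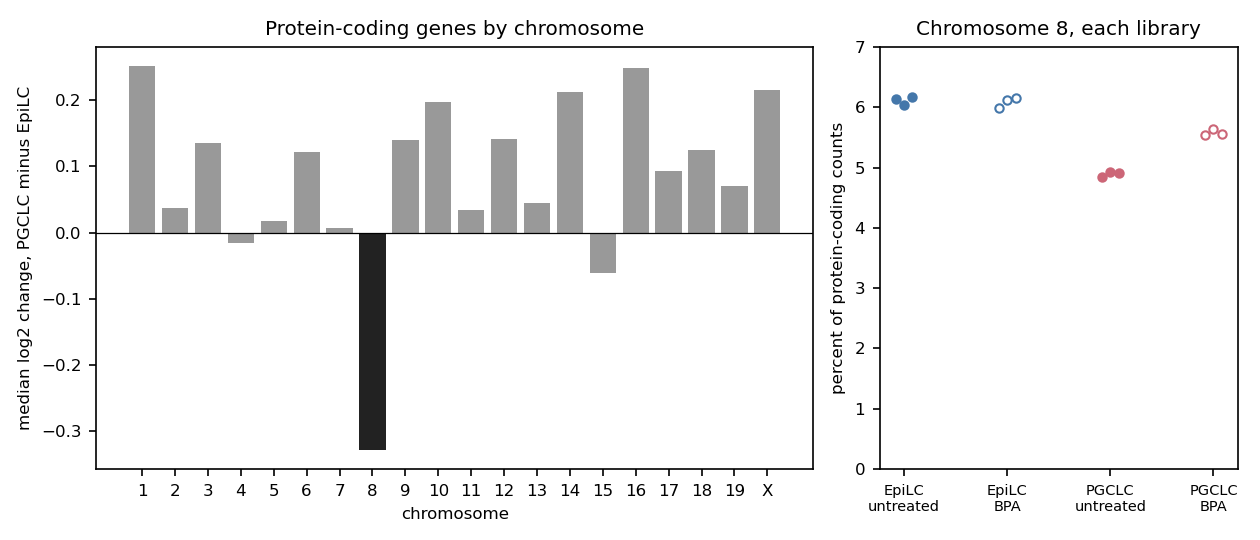
Median log2 change of protein-coding genes by chromosome (left, bars) and the percentage of protein-coding counts from chromosome 8 in each library of the 4 groups (right), where each point is 1 library. Chromosome 8 has the lowest median, -0.33, and the untreated PGCLC points, 4.84% to 4.93%, lie below those of all other groups.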

How the data were processed

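Per the submitters' processing notes, reads were converted with bcl2fastq 2.19.1.403, checked with FastQC, aligned with STAR and counted with HTSeq on mm10; how HTSeq treated strand: not given in the sources. The deposited values are counts, whole reads per Ensembl gene in 1 file per library, from which the authors left out genes under 10 counts. Summary rows of reads without a feature (4.42% to 7.19% in EpiLCs, 10.2% to 10.7% in PGCLCs) and ambiguous reads (4.81% to 6.07%) stayed out of library sizes and tests. Mitochondrially encoded genes were not analysed here.

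Unlisted genes were set to 0. Of 20560 genes in the 6 files, 16293 passed filterByExpr; all 6 libraries were scaled together by TMM, and stages compared by edgeR's quasi-likelihood F test (edgeR 4.0.16, limma 3.58.1, R 4.3.3), group means only, 2-sided, with Benjamini-Hochberg adjustment over all genes tested and a threshold of 0.05. All adjusted p-values are from this test. A fold against an unlisted group is a bound computed with 9 counts in each of its libraries. Counts were simulated from these libraries with 200 genes changed (15222 genes in the fit). There 40 of 66 genes changed 4-fold, 7 of 67 changed 2-fold and 0 of 67 changed 1.5-fold were called. So were 4 unchanged genes, and small changes can be missed. With few changed genes the Benjamini-Hochberg cut is stricter, and in the data 48.3% of tested genes were called. The simulated rates therefore do not give the sensitivity of this comparison. Libraries of the 2 stages with the same replicate number did not deviate together (correlations of deviations -0.02, -0.01 and 0.02). With 3 libraries per stage these values cannot exclude a pairing.

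The comparison, the markers and the 77 gene lists were chosen with earlier results of these data known. Named genes were the 4 markers, the 12 largest rises and falls among protein-coding genes listed in all 6 libraries with at least 5 CPM in the higher group, the 8 most abundant protein-coding genes listed in 1 stage only, the 8 largest gains and losses in CPM among called protein-coding genes other than ribosomal proteins and histones, up to 5 members per list with the largest changes, and the 6 steadiest genes over 100 CPM. Other genes were named for their place in a pathway after their values were seen. Some genes that the rule picks are not reported here. Promoters came from RefSeq (GRCm38.p6) and matched 81.2% of tested protein-coding genes on the chromosomes covered. Alternatives covered scaling, filters, DESeq2 1.42.0, limma voom, a test against a 1.2-fold change, a replicate block, a fit of all 12 libraries, unlisted genes, ribosomal proteins, GC content and gene length, and each library left out; leaving out chromosome 8 and keeping protein-coding genes only were chosen after seeing the data.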

Additional observations from a re-analysis of the deposited data

How the results depend on the processing

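The numbers of called genes (7870) and of genes called at least 2-fold different (4995) stayed within 1.5 times of these values under every alternative run. DESeq2 called 8774 genes and limma voom 8453, the test against a 1.2-fold change 6880, the fit of all 12 libraries 9787 and the GC content and length offsets 8541. Leaving out 1 library gave 6373 called genes (without EpiLC replicate 1) to 9195 (without EpiLC replicate 3), and 4723 to 5134 at least 2-fold. With a replicate block 6506 genes were called and 4177 at least 2-fold. The replicate numbers gave no sign of pairing, which 3 libraries per stage cannot exclude. Whether a call lost there is a weaker effect cannot be told. Over the gene lists the block moved 21 counts by more than 1.5 times, 12 of them by 1 gene. Higher genes went from 14 to 8 in the Rhox list, 10 to 6 in mitosis, 9 to 5 in Polycomb repressive complex 1, 8 to 5 in keratins and 2 to 0 in Hox genes. Lower genes went from 5 to 3 in Polycomb repressive complex 1 and in surface markers, and from 4 to 2 in Sox genes. The test against a 1.2-fold change left 3 mitosis genes higher, 13 oxidative phosphorylation genes lower and 3 Polycomb repressive complex 1 genes lower. In the fit of all 12 libraries higher genes were 18 in mitosis, 12 in H3K4 and H3K36 methylation, 8 in H3K9 methylation, 4 each in the tricarboxylic acid cycle and proteasome and 2 in mitochondrial ribosomal proteins, and lower genes 5 in nuclear receptors and 4 in mitosis. DESeq2 called 5 nuclear receptors, 4 mitosis, 4 DNA repair and 2 T-box genes lower. Counting unlisted genes as 9 gave 5 piRNA, 3 mesoderm and 3 T-box genes lower, and limma voom 3 mesoderm and 2 T-box genes lower and 2 mitochondrial ribosomal proteins higher. DNA repair had 4 lower genes under RLE factors and among protein-coding genes only. Keeping genes listed in all 6 libraries lowered list counts because fewer genes were tested, among them the 2-cell-like genes from 16 to 2 lower. Higher genes went from 16 to 6 in endoderm, 14 to 6 in Rhox, 12 to 6 in mesoderm and 8 to 3 in Gata and Tfap2 genes. They went from 16 to 10 in Fox, 16 to 9 in collagens, 10 to 5 in Sox and 5 to 2 in T-box genes. Keratins, stromal and trophoblast markers each went from 8 to 5 higher, and blood and endothelial markers from 5 to 3. Hox genes went from 10 to 6 lower and from 2 to 0 higher. Over the 21 settings no gene named in the text and called in the main fit changed direction. Changes of direction were not counted for named genes without a call. Of the named genes, 20 lost a call in at least 1 setting and 16 gained one. Airn, Eef1a1 and Srebf2 lost it in 9 settings and Epcam and Pfkm in 7, Pou5f1 gained one in 9 and Bmpr1a in 8. Scaling by library size alone or by RLE moved the median log2 change of all genes from 0.01 to 0.05 and -0.02. The number of libraries, 3 per stage, and the lower depth of the EpiLC libraries limit small changes and genes near 10 counts. Sorting, aggregate culture and library batch cannot be told apart from the stage.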
